A study of Caenorhabditis elegans with 4 samples.

Results

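The nspg genes are a family of Caenorhabditis elegans genes named for nematode-specific peptides. The 7 described here are nspg-1, nspg-7.1, nspg-7.2, nspg-9, nspg-10, nspg-13 and nspg-14. They are the nspg genes with a ratio on all 4 arrays of the series, out of 2222 named genes with such ratios. They were chosen as a group by their array ratios, whose median stood high in young adults, though the ratio of nspg-7.2 did not. These ratios are therefore given as a description, with no test.

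RNA came from dissected gonads of cde-1 mutant worms carrying the tm1021 allele and of N2 wildtype worms. Mutant and wildtype were hybridised together on arrays of 2 colours, 2 arrays for young adults and 2 for aged adults, 1 with Cy5 on the mutant cDNA (the Cy5-mutant array) and 1 with Cy3 on it (the Cy3-mutant array). The labels give 250 gonads for a sample and 1 RNA sample for each genotype and stage, and they state no exact age and no culture replicate. The 2 arrays of a stage hold the same cDNAs, so their spread is technical and each stage is 1 replicate.

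As background, cde-1 encodes a terminal uridylyltransferase, an enzyme that adds uridines to RNA ends and acts in the germ line on small RNAs bound by the Argonaute CSR-1. CSR-1 and its small RNAs target many transcripts made in the germ line. The gonad of the adult worm holds germ cells from dividing precursors to gametes, enclosed by somatic cells. The nsp gene names group short nematode peptide families by letter, and no molecular role for nspg proteins is given in the sources used here.

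Values are log2 ratios, computed from the deposited ratios read as log10, so that 1 log2 unit is a 2-fold ratio. Neither the log base nor the direction is stated with the values. If they were deposited as log2, every size below would be 3.32 times too large. As deposited, the Cy5-mutant and Cy3-mutant arrays of a stage had positive correlations (Pearson 0.58 over 9159 probes in young and 0.34 over 10309 probes in aged adults, across probes, which are not independent replicates). The values were averaged as they stood, on the reading that 1 array of each stage had been turned before deposit. Under this reading a positive ratio likely means mutant over wildtype, provided the Cy5-mutant arrays hold Cy5 over Cy3, which is not stated. The basis is number format alone. The 11541 young and 12418 aged ratios on Cy5-mutant arrays are all in scientific notation. None of the 10775 young and 12704 aged ratios on Cy3-mutant arrays is, so the latter were handled separately. The titles read wildtype vs cde-1 for the Cy5-mutant arrays and cde-1 vs wildtype for the Cy3-mutant ones. Read as a ratio in that order, the Cy5-mutant titles would give the opposite sign. If the sign is the opposite, every positive ratio below is a negative one. If no array was turned, the averages hold the dye effect. The mutant against wildtype difference is then in the orientation difference, which is given below for the 7 members.

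About as many values were exactly 0 as not, between 43.7% and 52.2% of an array, and these were taken as spots with no ratio. Signals over background were not used here, so a gene's level in the gonad is unknown and only the ratio is described. None of 31 markers for germ line, sperm, intestine, somatic gonad, hypodermis, muscle and neurons had a named probe, so the tissue label was not checked. In bulk RNA, fewer cells of a type and less RNA per cell cannot be told apart. No named probe of cde-1 was used here.

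In young adult gonads, 6 of the 7 nspg genes had a positive ratio on both arrays, where 37.4% of all tested genes did. Their median log2 ratio was 1.57, beside 0.025 over all 2222 genes. The rule chose them on these ratios, so the share is no evidence about the family. The exception was nspg-7.2, with opposite signs on the young arrays, as 26.8% of genes had. In aged adult gonads the median over the 7 genes was 0.04, beside 0.181 over all genes. There 1 member, nspg-7.2, was positive on both arrays, where 39.1% of genes were, and 1, nspg-14, was negative on both, where 25.3% were. In young adults 5 genes had means of 1.27 to 2.01, and nspg-1 and nspg-7.2 had 0.85 and 0.26. In aged adults the same 5 had means between -0.26 and 0.13, and nspg-1 and nspg-7.2 had 0.31 and 0.69.

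**Figure D1:**
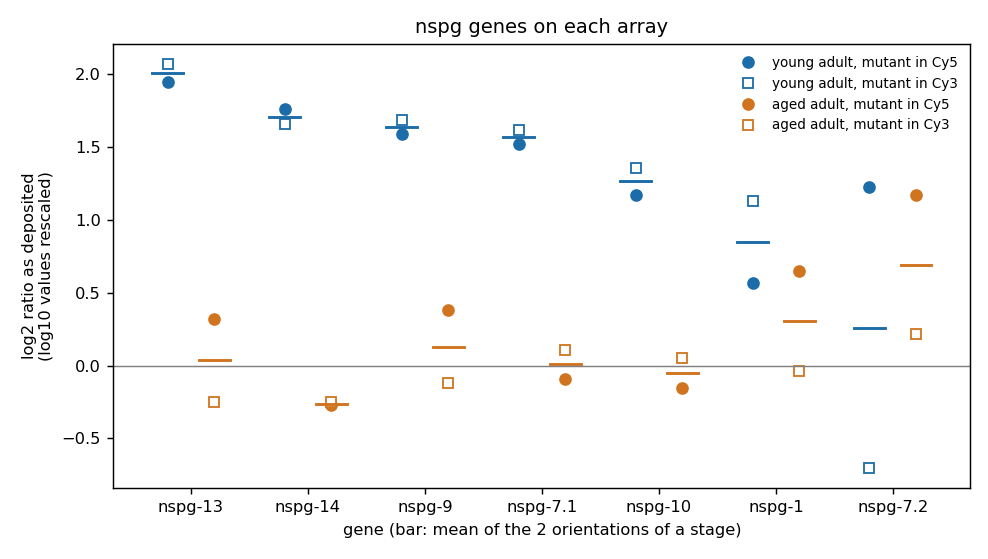
Log2 ratio of each nspg gene (x axis) on each of the 4 arrays (y axis, as deposited and rescaled from log10). Filled circles are Cy5-mutant and open squares Cy3-mutant arrays, blue for young and orange for aged adults, and bars are the mean of the 2 orientations. In 5 genes both young adult values lie above 1 and both aged adult values below 0.5; nspg-1 and nspg-7.2 overlap between stages.

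The gene with the largest young adult ratio was nspg-13 (sequence name Y34B4A.9), on the X chromosome. In young adults it had 1.95 on the Cy5-mutant and 2.07 on the Cy3-mutant array, and its aged values were 0.32 and -0.25. The young adult values were close together and lay well above the aged ones, which had opposite signs. The young mean was 2.01 ± 0.08 (SD of the 2 orientations), a 4.04-fold ratio, and the aged mean 0.04 ± 0.41. The young mean was above those of 98.3% of genes.

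Its neighbour nspg-14 (Y34B4A.6), also on the X chromosome, had 1.76 and 1.66 in young adults, and -0.27 and -0.25 in the aged, with the Cy5-mutant array given first here and below. Both orientations agreed closely in both stages. The means were 1.71 ± 0.07, a 3.27-fold ratio, and -0.26 ± 0.02. This was the one nspg gene with both young values positive and both aged values negative, and it stayed so after each array was centred on its median, where the aged mean was -0.35.

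On chromosome IV, nspg-9 (LLC1.2), the one member with 3 annotated RefSeq proteins, had 1.59 and 1.69 in young and 0.38 and -0.12 in aged adults. Its means were 1.64 ± 0.07 and 0.13 ± 0.35. The gene nspg-7.1 (T20D3.2) had 1.52 and 1.62 in young and -0.09 and 0.11 in aged adults, with means of 1.57 ± 0.07 and 0.01 ± 0.14. In both genes the aged values straddled 0 and did not reach the young ones. The gene nspg-10 (F19C7.1) had 1.17 and 1.36 in young and -0.15 and 0.05 in aged adults. Its means were 1.27 ± 0.13, a 2.40-fold ratio, and -0.05 ± 0.14.

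The other two members did not separate the stages. On chromosome V, nspg-1 (T07F10.6) had 0.57 and 1.13 in young and 0.65 and -0.04 in aged adults. Its aged Cy5-mutant value lay above its young value in the same orientation, and its means were 0.85 ± 0.40 and 0.31 ± 0.49. On chromosome III, nspg-7.2 (Y53G8AM.5) had 1.23 and -0.70 in young and 1.17 and 0.22 in aged adults. Its young orientations disagreed in sign, so that the young mean of 0.26 ± 1.36 was smaller than its spread, and its aged mean was 0.69 ± 0.67. Of the pair that share a number, nspg-7.1 and nspg-7.2, the former lay above both young values of the latter.

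Ordered by young adult mean, the genes ran nspg-13, nspg-14, nspg-9, nspg-7.1, nspg-10, nspg-1 and nspg-7.2. The array values of nspg-14 overlapped those of nspg-9, and those of nspg-9 overlapped those of nspg-7.1, so these neighbours in the order did not differ beyond the spread between orientations. Values of nspg-13 lay above all values of the other members, and values of nspg-10 lay below those of nspg-14, nspg-9 and nspg-7.1. The values of nspg-1 lay below those of nspg-10, and those of nspg-7.2 reached from below nspg-1 into the range of nspg-10.

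Both young adult arrays exceeded 1 log2 unit for 5 of the 7 genes, where 7.92% of all tested genes did so. In aged adults the count was 0 of 7, where 7.07% of genes did. Values below -1 on both arrays of a stage were found for 0 members in either stage, where 5.04% of genes had them in young and 2.57% in aged adults. Both young values exceeded both aged values in the same 5 genes, where 27.6% of all genes showed this, and the reverse was found for 0 members, where 33.1% did. These counts come from the ratios that chose the members.

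The young minus aged difference had a median of 1.52 over the 7 genes, from -0.43 in nspg-7.2 to 1.98 in nspg-13, beside a median of -0.094 and an SD of 1.30 over all genes. The differences of nspg-13 and nspg-14, 1.98 and 1.97, lay above those of 95.7% and 95.6% of genes. The difference sets 1 RNA pair against another, so age and the single RNA samples cannot be told apart.

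**Figure D2:**
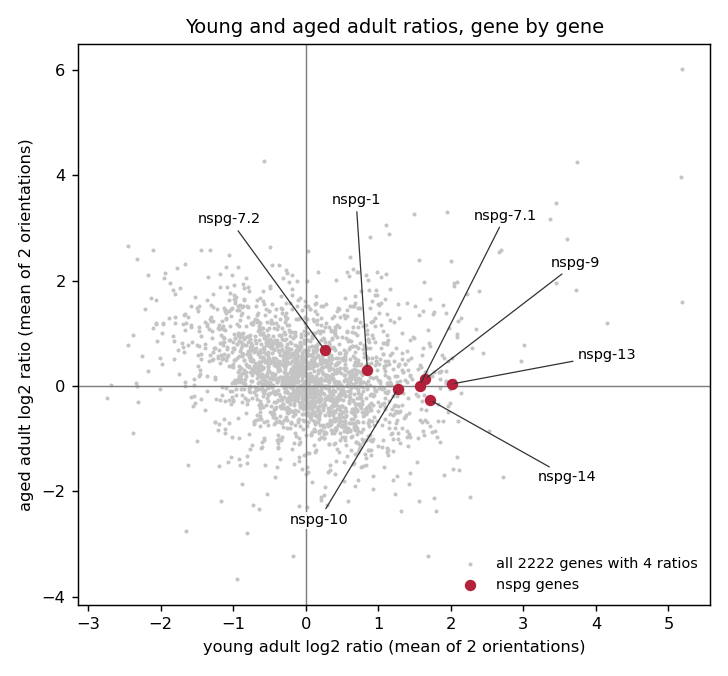
Young adult (x axis) against aged adult (y axis) log2 ratio, each the mean of 2 orientations, for all 2222 genes with 4 ratios (grey) and the nspg genes (red, named). Of the nspg genes, 5 lie at young ratios of 1.27 to 2.01 with aged ratios between -0.26 and 0.13, and nspg-1 and nspg-7.2 lie nearer the bulk of genes.

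Agreement between the orientations was close in young adults for all members but nspg-1 and nspg-7.2. The absolute gap between the 2 young arrays had a median of 0.12 over the 7 genes, beside 0.409 over all genes, and ran from 0.10 to 0.56 in 6 members and reached 1.93 in nspg-7.2. In aged adults the median gap was 0.49, beside 0.66 over all genes. On the aged Cy5-mutant array the members' median of 0.32 lay near the 0.365 of all genes, and on the aged Cy3-mutant array their median was -0.04, beside -0.011. The signs of the 2 aged arrays were opposite in 5 of the 7 genes, where 35.6% of all genes had opposite signs.

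The same values give the mutant against wildtype difference under the other reading, in which no array had been turned. It is then the difference of the orientations divided by 2. In young adults this was -0.28 for nspg-1, -0.05 for nspg-7.1, -0.05 for nspg-9, -0.09 for nspg-10, -0.06 for nspg-13 and 0.05 for nspg-14, with 0.96 for nspg-7.2. All but nspg-7.2 then lay within 0.28 of 0, beside a median of 0.10 and an SD of 0.40 over all genes. In aged adults it was 0.35 for nspg-1, -0.10 for nspg-7.1, 0.47 for nspg-7.2, 0.25 for nspg-9, -0.10 for nspg-10, 0.29 for nspg-13 and -0.01 for nspg-14, with a median of 0.25 beside 0.179 over all genes. The high young adult ratios are a difference between mutant and wildtype RNA under the first reading and a dye difference under the second. With 1 RNA sample for each genotype and stage, genotype and the single samples cannot be told apart. Between young and aged adults, the Cy5-mutant arrays had a Pearson correlation of -0.06 over 9637 probes. The Cy3-mutant arrays of the 2 stages had -0.12 over 9401 probes. Which reading holds was not tested.

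**Figure D3:**
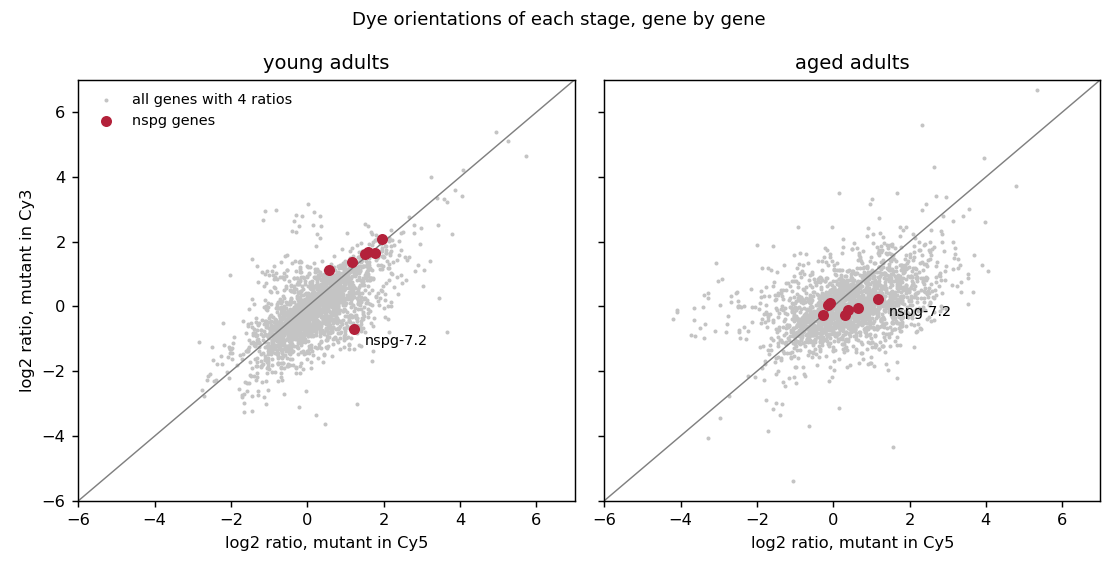
Log2 ratio on the Cy5-mutant (x axis) against the Cy3-mutant array (y axis) in young (left) and aged (right) adults, for all genes with 4 ratios (grey) and the nspg genes (red), with the line of equal values. In young adults 5 nspg genes lie close to the line at positive values, nspg-1 lies above it at 0.57 and 1.13, and nspg-7.2 below it at 1.23 and -0.70. In aged adults nspg-7.2, at 1.17 and 0.22, and nspg-1, at 0.65 and -0.04, lie farthest to the right.

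The rest of the family was measured on fewer arrays. Of 14 nspg symbols in the reference annotation, 12 had a named probe, and nspg-3 and nspg-6 are not analysed here. The 5 genes outside the 7 had a ratio on 0 to 3 arrays, and none had both young adult ratios. Their young values were -0.61 for nspg-5 and 0.85 for nspg-8 on the Cy3-mutant array, and 0.47 for nspg-12 on the Cy5-mutant array. All 3 lay below the young values of nspg-7.1, nspg-9, nspg-10, nspg-13 and nspg-14.

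In aged adults the order was different. There nspg-8 (chromosome III) had 2.42 and 1.18, with a mean of 1.80 ± 0.88, and nspg-5 (X chromosome) had 1.09 and 1.05, with a mean of 1.07 ± 0.03. Both means lay above those of all 7 members, whose highest was 0.69 ± 0.67 in nspg-7.2. On the Cy5-mutant array, though, nspg-7.2 had 1.17, above the 1.09 of nspg-5. With no array taken as turned, the aged values were 0.62 for nspg-8 and 0.02 for nspg-5. The order of the means then did not hold, since nspg-5 lay below nspg-7.2, nspg-1, nspg-13 and nspg-9. The values of nspg-11 (chromosome IV) were -0.71 and 1.44, of opposite sign, and nspg-4 had no ratio on any array. A gene enters the set of 7 only with ratios in both stages, so the 7 are not a sample of the family.

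The members lie on chromosomes X (2), IV (3), III (1) and V (1). The reference annotation, of the WBcel235 assembly, served for names and gene order. No coordinates are printed, since the sources used here do not name the build of the probes. The genes nspg-14, nspg-13 and nspg-12 follow one another with 0 annotated genes between them. Along this run the young Cy5-mutant values were 1.76, 1.95 and 0.47, so the third gene did not match the first 2. On chromosome IV, nspg-11 and nspg-7.1 had 2 annotated genes between them, and nspg-11 had no young ratio.

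The nearest measured genes on either side had young adult means of both signs, and unmeasured genes lay between them and the members. Of 12 such genes, 6 had a positive young adult mean, where 51.6% of all genes did, and 6 a negative one. Of the 12, 2 were above 1 on both young arrays, where 7.92% of all genes were. For the run on the X chromosome the nearest measured genes were metl-9 and Y34B4A.2. With 23 annotated genes between it and nspg-14, metl-9 was at -1.67 in young adults. Y34B4A.2, with 9 between it and nspg-13, was at -0.86, against 2.01 for nspg-13 and 1.71 for nspg-14. In aged adults metl-9 was at 1.37 and Y34B4A.2 at 0.79.

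For nspg-9, F55B11.3, with 109 annotated genes between, 3 of them protein-coding, had -2.74 in young adults. On the other side Y57G11A.4, with 92 between, 1 of them protein-coding, had 1.26. For nspg-1, T07F10.3, with 1 annotated gene between, had -1.83, and ZC443.1, with 16 between, had 1.03. In both cases, and for nspg-10 and nspg-7.1 below, the genes on the 2 sides had opposite signs. For nspg-10, F19C7.2, with 1 gene between, had -0.25, and F29B9.5, with 9 between, had 1.33. For nspg-7.1, F49C12.12 had 0.20 and slc-25A51 had -0.51, each with 4 genes between. For nspg-7.2, Y53G8AL.1, with 6 genes between, had 1.50 in young and 3.28 in aged adults, higher than the member itself, and Y53G8AR.8, with 4 between, had 0.21 and -0.12. Over the 60 other genes among the 5 nearest measured ones on each side of a member, the median was 0.05 in young and 0.13 in aged adults. Up to 1265 annotated genes, 40 of them protein-coding, lay between such a gene and nspg-9.

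**Figure D4:**
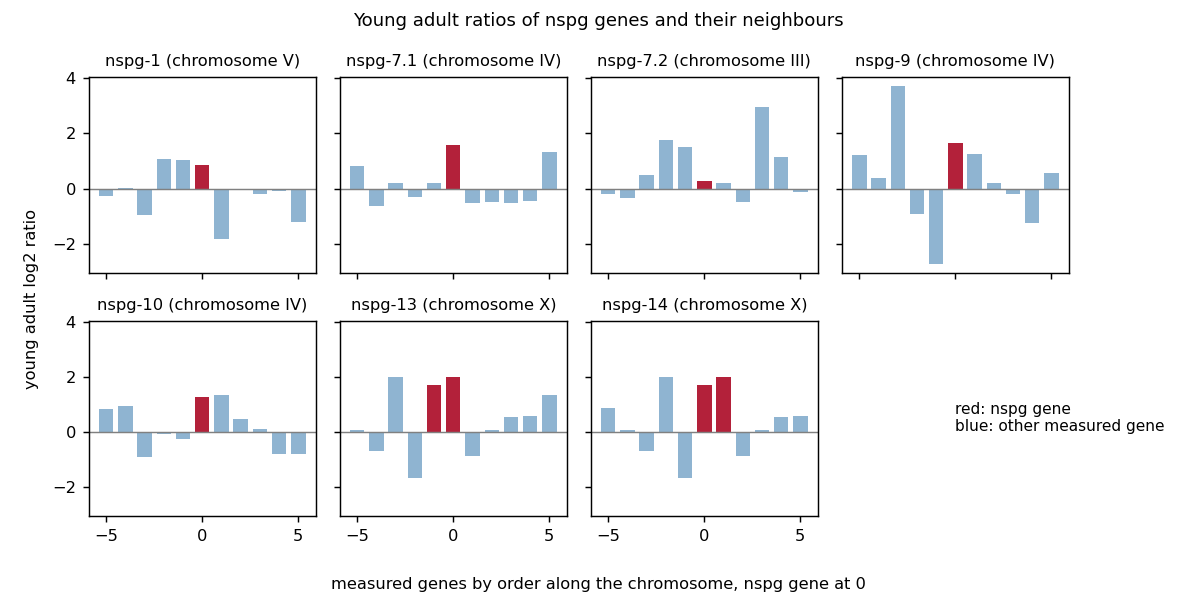
Young adult log2 ratio (y axis) of each nspg gene (red, at 0) and of the 5 nearest measured genes on each side in chromosome order (blue, x axis counting measured genes only, with unmeasured genes between; red where the neighbour is itself an nspg gene). Neighbouring bars point both ways, and nspg-13 and nspg-14 stand beside each other, with the nearest other measured genes metl-9 at -1.67 and Y34B4A.2 at -0.86.

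The genes with the pattern nearest to the members' median profile over the 4 arrays, by Euclidean distance, were Y49E10.16, Y34D9A.7, C33H5.13, T11F8.4 and R07E5.4. Their distances were 0.36 to 0.51 log2 units, beside a median of 2.63 over all genes. Y49E10.16 had 1.61 and 1.57 in young and 0.45 and 0.28 in aged adults, and T11F8.4 had 1.54 and 1.25, then 0.48 and -0.32. Among the members, nspg-9 and nspg-7.1 were nearest to the profile, at 0.14 and 0.44, and nspg-7.2 was farthest, at 2.50, rank 991 of all 2222 genes. The profile was made from the members, so their own distances are no test. The 4 arrays hold 2 pairs of RNA samples, so likeness rests on 2 stages.

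Related families were sparsely measured. Of the other nematode-specific peptide families, 3 genes of the nsph family had named probes and 1 was tested. This was nsph-1.2, with -0.43 and -1.11 in young and 0.02 and 1.15 in aged adults, the opposite sign to most nspg genes in young adults. Of 11 named spe genes, which are known for defects in sperm formation or function, 2 were tested. In young adults spe-18 had 1.48 and 0.26, and in aged adults -2.42 and -0.02. The values of spe-48 were -0.26 and -0.56 in young and -1.09 and 0.49 in aged adults, within 1 log2 unit of 0 on 3 of the 4 arrays.

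Of 14 named spig genes, 6 were tested. On both young adult arrays 4 of these exceeded 1, where 7.92% of all genes did. On both aged arrays 0 of them exceeded 1, where 7.07% did. The nspg counts were 5 of 7 and 0 of 7. Both young values exceeded both aged values in 5 of the 6 spig genes, as in 5 of the 7 nspg genes, where 27.6% of all genes showed this. Among the spig genes, spig-17 had 2.89 and 1.28 in young and 1.63 and 0.36 in aged adults, spig-10 had 1.96 and 1.79, then 1.65 and -0.48, and spig-20 had 1.76 and 2.04, then 0.62 and 0.46. These 3 are the tested spig genes with the largest mean over both stages; the aged means of all 6 ran from -0.14 to 1.0, with a median of 0.42. The difference between the families was not tested, and the spig genes also became known from results of these data.

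Over both stages limma called 0 of 2222 genes positive and 0 negative at an adjusted p under 0.05 (n = 2 stages, 0% in each direction), and 61 and 11 at an unadjusted p under 0.05. None of the nsph, spe, spig or neighbouring genes therefore passed; the mean of spig-17 over both stages was 1.54 ± 0.54 (limma SE, adjusted p = 1), positive on 4 of 4 arrays. The number of calls depended on the setting. With arrays centred, limma called 13 genes positive. The prior degrees of freedom, its weight on the spread shared by all genes, were then 65.2, against 4.47 in the main fit. Why the calls changed was not tested, and counts for the other settings are given below.

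**Figure D5:**
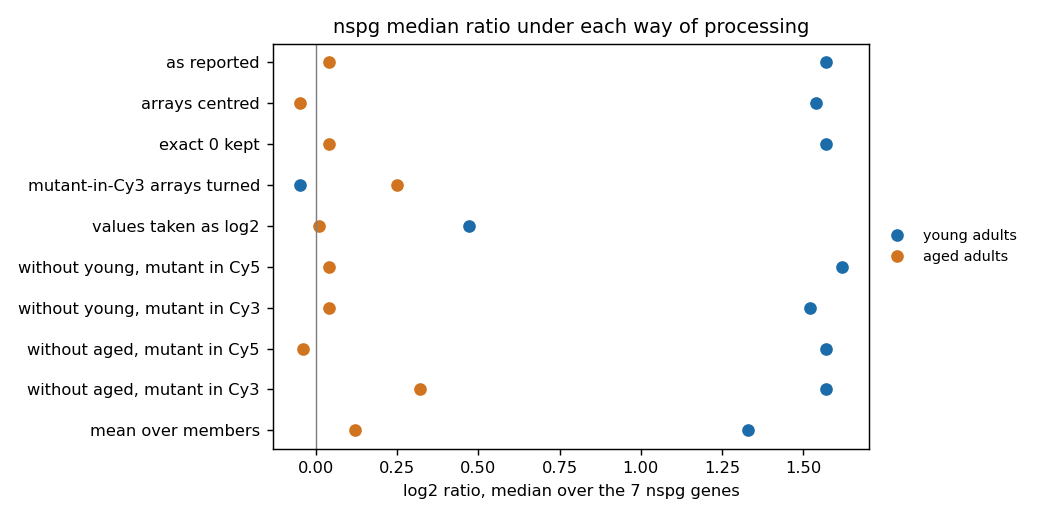
Median log2 ratio over the 7 nspg genes (x axis) in young (blue) and aged (orange) adults under each way of processing (y axis). The young median stays between 1.33 and 1.62 except with the Cy3-mutant arrays turned, at -0.05, and with the deposited values taken as log2, at 0.47; the aged median lies between -0.05 and 0.32.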

How the data were processed

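The deposited table gave 1 log ratio per probe and array, for 22562 probes on 4 arrays. Per the submitters' processing notes it came from Agilent Feature Extraction; the sources used here do not give its version, background correction or dye normalization. The deposited values were read as log10 ratios, that program's convention, and multiplied by 3.32. Exact 0 was taken as missing. Probes were named from the platform annotation through gene identifiers (7718 named, 14844 unnamed, 7691 matched to WBcel235), probes of a gene were averaged, and each nspg gene had 1 probe.

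Each stage gave the mean of its orientations, and limma 3.58.1 (R 4.3.3) compared these 2 means with 0 (lmFit, eBayes, Benjamini-Hochberg over 2222 genes). The fit was also tried on simulated data, with a common SD for all genes and the same shift in both stages. Those settings differ from these data, so the trial does not give the power here. Descriptions used pandas 2.3.3. P-values measure the spread between 2 stages that differ in age.

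The members, lists and comparisons were chosen with earlier results of these data known. The text names all 7 members, every other nspg gene with a named probe, up to 3 genes of each related list with the largest mean ratio, the nearest measured neighbours and the 5 most similar genes. No named probe was found for msp, msd, ssp, ssq or sss genes, for gsp-3 or gsp-4, or for the nspa to nspf families. Alternatives were centring, keeping zeros, turning the Cy3-mutant arrays, another log base and leaving out each array, with other fits for limma. Protein and promoter sequences were not used here.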

Additional observations from a re-analysis of the deposited data

Results flagged for a closer look

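Among the 7 members, 1 result was picked out for opposite signs in the stages. Of all genes, 37.4% were positive on both young adult arrays and 25.3% negative on both aged adult arrays. How many had both together was not counted, so the sign pattern is not read as particular to the members. For nspg-14 both young adult arrays were positive (1.76 and 1.66) and both aged adult arrays negative (-0.27 and -0.25), a young minus aged difference of 1.97 log2 units. Its aged mean lay above those of 27.2% of genes, and its difference above those of 95.6%. Genes outside the family also had such signs. One was C33G8.2, with 1.82 and 1.54 in young and -2.98 and -3.45 in aged adults. The difference of nspg-14 was not tested, because it sets 1 RNA pair against 1 other. With the Cy3-mutant arrays turned, the stage values became 0.05 and -0.01.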

How the results depend on the processing

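The young adult median and the young minus aged median moved most with the direction of the arrays and the log base, and the aged median most without the aged Cy3-mutant array. With the Cy3-mutant arrays turned, the young median was -0.05, the young minus aged median 0.01 and the count of members above 1 in young adults 0, with 9 genes above 1 in young and 25 in aged adults overall. Young values were then -0.28 for nspg-1, -0.05 for nspg-7.1 and nspg-9, -0.09 for nspg-10 and -0.06 for nspg-13; aged values were -0.10 for nspg-7.1 and -1.07 for nspg-11, and the nearest neighbours' young median was 0.04, from -0.02. With values taken as log2 the young median was 0.47, the difference 0.46, the member count 0, and 7 and 3 genes were above 1, all by construction. Centring gave an aged median of -0.05, aged values of -0.08 for nspg-7.1 and -0.05 for nspg-13, and 13 positive limma calls. The mean over members was 1.33 in young adults and 1.21 for the difference. Keeping zeros changed no value of the members and no aged mean of nspg-5, nspg-8 or nspg-11. It would fill the missing ratios of nspg genes outside the members, which are not given here.

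Leaving out 1 array moved the aged median between -0.04 and 0.32 and the members above 1 in aged adults between 0 and 1, which was nspg-7.2. Ranges were -0.70 to 1.23 for nspg-7.2 in young adults and, in aged adults, -0.04 to 0.65 for nspg-1, -0.09 to 0.11 for nspg-7.1, -0.12 to 0.38 for nspg-9, -0.15 to 0.05 for nspg-10, -0.25 to 0.32 for nspg-13 and -0.71 to 1.44 for nspg-11. The nearest neighbours' young median ran from -0.02 to 0.01. Positive limma calls were 11 and 20 without the young Cy5-mutant and Cy3-mutant arrays, and 10 and 9 without the aged ones; negative calls ran from 0 to 1. With 1 array left in a stage, genes above 1 on it numbered 303 and 429 in young and 247 and 648 in aged adults, since 1 array had to pass in place of 2; over all 4 omissions the counts ran from 177 to 429 and from 166 to 648. limma gave 3 positive calls with 4 arrays and stage as a random block and 1 with small ratios left out; the cause was not tested. Among 168 values for single genes and lists, 131 kept their direction and moved by less than the SD of the orientations, which is wide for some genes. Of the rest, 19 moved by more and 18 reversed. Leaving out 1 of the 2 arrays of a stage always moves a single gene by less than that SD, though its sign can change. An array of the other stage does not enter its value, and keeping zeros moved none of these values. Much of the 131 was therefore fixed in advance, and the count is no measure of stability. No paired analysis was possible because each ratio already holds the mutant and wildtype of 1 array, and the labels link no further samples by number. Spots near background cannot be named, since signals were not used here.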
